A study of Mus musculus with 12 samples.

Results

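Brain barrier transporters are the membrane proteins that carry drugs, metabolites, hormones and nutrients across brain capillary endothelium, the arachnoid layer of the meninges and, for some, the choroid plexus. The set described here holds 10 of the 57010 genes in the count table, chosen by name as solute and drug transporters of brain endothelium and meninges: Slc22a8, Slc22a6, Slc47a1, Slco1a4, Slco1c1, Abcb1a, Abcg2, Slc2a1, Slc7a5 and Slc16a1. All 10 were found, and all 10 passed the filter on low counts, with 82 to 6498 reads per gene and library. RNA was sequenced in bulk from mouse cerebellum (crus 1 by the series title), in 3 groups of 4 libraries: Fmr1 knockout mice injected with poly(I:C) into the peritoneal cavity (treated knockout), Fmr1 knockout mice given saline, called sham in their titles (saline knockout) and FVB mice given saline (FVB). FVB is an inbred strain that the series' design text names as the background, Fmr1 encodes the RNA-binding protein lost in fragile X syndrome, and poly(I:C) is a synthetic RNA that mimics viral infection. The sources used here do not state the knockout allele, the sex and age of the mice, or the dose and timing of the injection. With no poly(I:C) group of FVB mice to set beside them, a treatment difference is measured in knockout mice only, and the knockout line differs from FVB in whatever else separates the lines.

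At the blood-brain barrier, endothelial cells joined by tight junctions must import fuel and building blocks through carriers, while ATP-driven pumps return many drugs and toxins to the blood. Glucose, large neutral amino acids, lactate and thyroid hormone each cross on a carrier of their own. Organic anion transporters remove waste anions, hormone conjugates and drugs from the brain side, and cells of the meninges carry a related set.

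The libraries of the treated knockout totalled 39.4 to 56.4 M counts (M, 1e6), those of the saline knockout 38.7 to 50.2 M and those of FVB 35.2 to 48.7 M. Levels are in CPM, counts per 1e6 counts of tested genes after TMM scaling for library composition, and a gene is said to have risen or fallen where edgeR's quasi-likelihood test gave a Benjamini-Hochberg adjusted p under 0.05 over 19166 tested genes. Cerebellar markers were high in every library, for example Gabra6 of granule cells at 847 to 1116 CPM and Pcp2 of Purkinje cells at 201 to 253 CPM. Fmr1 was at 34.6 CPM in the treated knockout and 31.7 CPM in the saline knockout, against 95.03 CPM in FVB. Libraries 2 and 3 of the treated knockout and library 2 of the saline knockout stood apart by choroid plexus RNA. Their Ttr, which encodes transthyretin, was at 2167, 2631 and 4156 CPM, while the other 9 libraries held 1.63 to 65.3 CPM, and calls on the 10 transporters that change without these 3 libraries are given. The labels do not tie libraries to separate mice, and p-values therefore measure only how these samples scatter, which may be technical.

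Of the 10 transporters 7 fell in the treated knockout against the saline knockout, 0 rose and 3 did not pass, and all 10 log2 fold changes were negative. The falls were Slc22a8, Slco1a4, Slc47a1, Slco1c1, Slc22a6, Abcb1a and Slc16a1, to between 40.9% and 69.4% of the saline level. Among all 19166 tested genes 1.06% fell in this comparison and 2.87% were called in either direction. The median log2 fold change was −0.65 over the 10 transporters and −0.0017 over all tested genes. In 7 of the 10 every treated library lay below every saline library, where 4.82% of all tested genes did so. The 10 were chosen with earlier results of these data known, so these counts are not independent support. Because RNA was measured in whole tissue, fewer cells of a type and less RNA per cell cannot be told apart. The count was 3 of 10 (Slc22a8, Slco1a4 and Slco1c1) without the 3 libraries high in Ttr, which leaves 2 treated and 3 saline knockout libraries. All calls in that setting numbered 215, against 550 with all libraries, and the log2 fold changes of the 4 lost were −0.74 (Slc22a6), −1.16 (Slc47a1), −0.50 (Abcb1a) and −0.50 (Slc16a1). Without treated knockout 3 or treated knockout 4 alone it was 4 of 10.

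**Figure D1:**
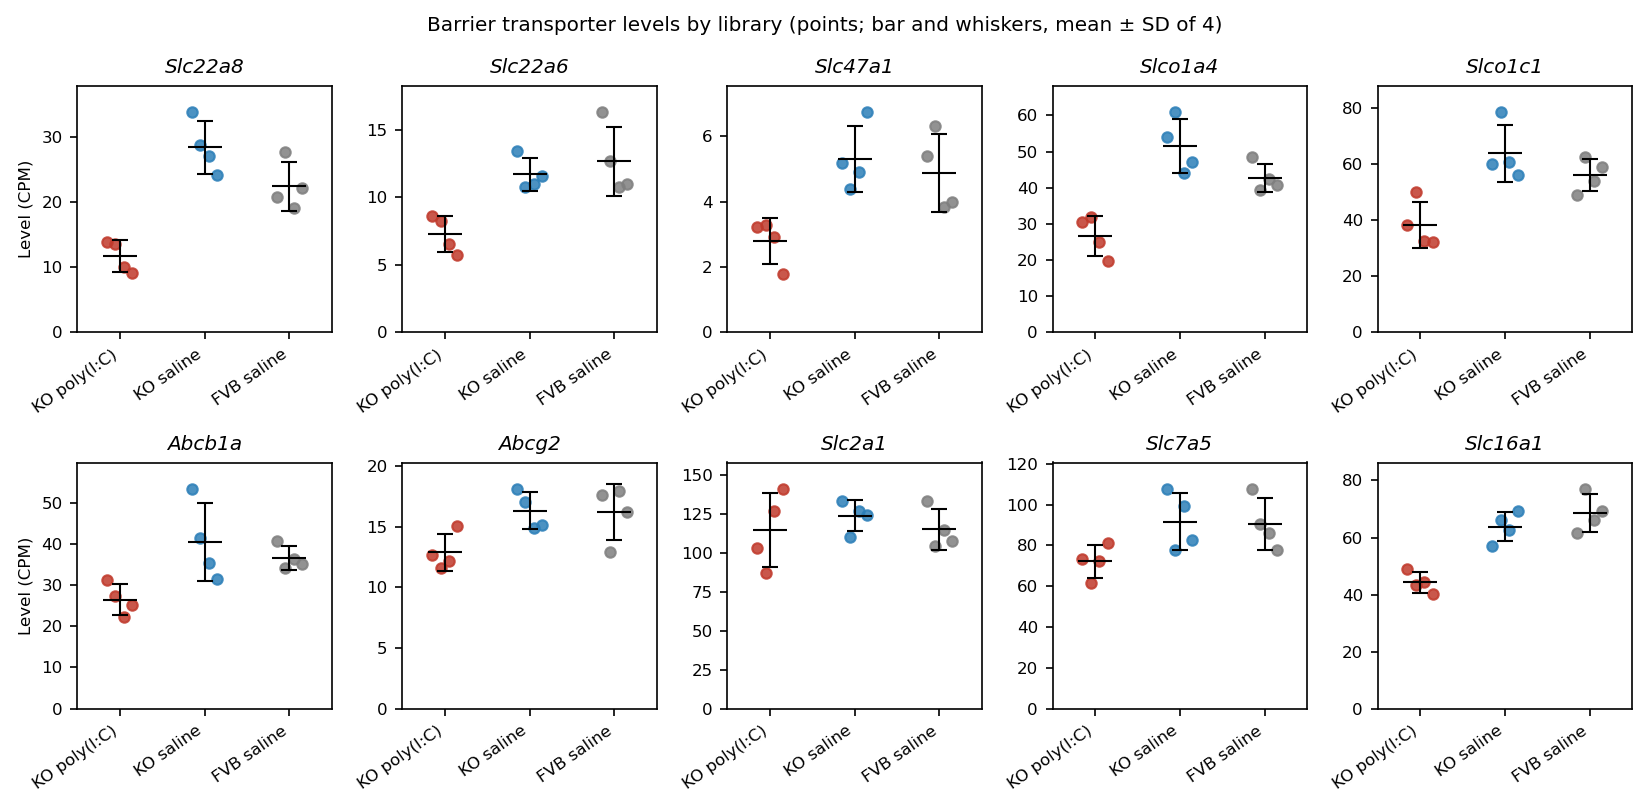
Level of each transporter in CPM (vertical axis from 0) in the 4 libraries of each group, with the group mean and SD as bar and whiskers. The 4 treated knockout points of Slc22a8 lie between 9.07 and 13.9 CPM, below all saline knockout points at 24.1 to 33.8 CPM, while those of Slc2a1 overlap both other groups.

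Slc22a8, Slc22a6 and Slc47a1, the members of the set from the SLC22 and SLC47 families of organic ion transporters, fell. Slc22a8 encodes OAT3, an exchanger that takes up organic anions such as drugs, steroid conjugates and neurotransmitter metabolites at the brain barriers and in kidney. It was at 13.9, 13.6, 9.95 and 9.07 CPM in treated knockout libraries 1 to 4, against 33.8, 28.7, 27.0 and 24.1 CPM in saline knockout libraries and 20.8, 27.6, 19.0 and 22.2 CPM in FVB libraries, in the same order of numbers. The highest treated library was below the lowest library of both other groups. Its log2 fold change was −1.29 (SE 0.1521, adjusted p = 6.20e-05) against the saline knockout and −0.94 (SE 0.1518, adjusted p = 0.00100) against FVB. Both calls held in all 22 alternative settings, and the first ranged from −1.38 to −1.18. No other transporter of the set had a larger log2 fold change in either comparison, and its 95% interval against the saline knockout was −1.61 to −0.96.

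Slc22a6, the neighbouring gene of Slc22a8 on chromosome 19, encodes OAT1, a close relative with overlapping substrates. Its level was 8.59, 8.25, 6.57 and 5.73 CPM in the treated knockout, 13.5, 10.8, 11.0 and 11.6 CPM in the saline knockout and 16.3, 12.7, 10.8 and 11.0 CPM in FVB. Again the treated libraries lay below all others, and FVB 1 was the highest of the 12. The log2 fold change was −0.68 (SE 0.151, adjusted p = 0.0150) against the saline knockout and −0.80 (SE 0.151, adjusted p = 0.002545) against FVB. Against the saline knockout the call ended without treated knockout 3 (adjusted p = 0.0666), treated knockout 4 (0.0607) or saline knockout 1 (0.0601), and without the 3 libraries high in Ttr (0.151, log2 fold change −0.74).

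Slc47a1, which encodes the proton-coupled cation exporter MATE1, had the lowest level of the set. It was at 3.23, 3.28, 2.92 and 1.78 CPM in the treated knockout, 5.19, 4.38, 4.90 and 6.74 CPM in the saline knockout and 5.403, 6.33, 3.83 and 3.99 CPM in FVB. No treated library reached the lowest library of the other groups, and treated knockout 4 was the lowest of all. Slc47a1 fell by 0.92 on the log2 scale against the saline knockout (SE 0.213, adjusted p = 0.0212) and by 0.80 against FVB (SE 0.213, adjusted p = 0.0282). The first call ended without treated knockout 3 (0.0574), treated knockout 4 (0.0675) or saline knockout 4 (0.0580), and without the libraries high in Ttr (0.0793, log2 fold change −1.16). The second ended without treated knockout 3 (0.0682) or 4 (0.0817) or FVB 1 (0.0693) or 2 (0.109), without the libraries high in Ttr (0.0881, log2 fold change −0.95), by limma-voom (0.0514) and with the meningeal list as a covariate (0.0799).

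RefSeq (GRCm38.p6) gives a promoter window of 300 bases, from 250 before to 50 after the annotated start, for 8 of the 10 transporters. The windows of the 2 neighbouring anion transporters that fell, Slc22a8 at chr19:8592932-8593231 (plus strand) and Slc22a6 at chr19:8617746-8618045 (plus strand), and of Slco1a4 at chr6:141856171-141856470 (minus strand) are shown beside those of 2 nutrient carriers. These are Slc16a1 at chr3:104638414-104638713 (plus strand), which fell less, and Slc2a1 at chr4:119108495-119108794 (plus strand), which did not pass. Capitals mark matches to the motifs searched, and all windows read 5′ to 3′ on the strand of the gene.
Slc22a8: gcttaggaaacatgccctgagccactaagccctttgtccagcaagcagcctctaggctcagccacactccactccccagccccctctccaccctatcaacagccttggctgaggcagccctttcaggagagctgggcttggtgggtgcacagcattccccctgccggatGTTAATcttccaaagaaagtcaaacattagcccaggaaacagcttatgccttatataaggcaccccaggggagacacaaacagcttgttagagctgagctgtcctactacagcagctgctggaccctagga
Slc22a6: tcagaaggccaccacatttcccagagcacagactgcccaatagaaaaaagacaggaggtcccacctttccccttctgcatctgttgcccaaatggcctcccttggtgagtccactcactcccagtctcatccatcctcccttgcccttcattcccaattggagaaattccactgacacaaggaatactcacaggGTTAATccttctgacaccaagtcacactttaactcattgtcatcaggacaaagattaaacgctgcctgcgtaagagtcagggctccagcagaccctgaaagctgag
Slco1a4: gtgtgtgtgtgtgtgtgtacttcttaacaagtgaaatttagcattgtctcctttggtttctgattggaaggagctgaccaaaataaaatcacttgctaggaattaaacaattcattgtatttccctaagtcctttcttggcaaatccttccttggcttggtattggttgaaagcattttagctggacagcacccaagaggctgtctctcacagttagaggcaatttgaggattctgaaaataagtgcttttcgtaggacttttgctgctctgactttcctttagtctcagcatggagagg
Slc16a1: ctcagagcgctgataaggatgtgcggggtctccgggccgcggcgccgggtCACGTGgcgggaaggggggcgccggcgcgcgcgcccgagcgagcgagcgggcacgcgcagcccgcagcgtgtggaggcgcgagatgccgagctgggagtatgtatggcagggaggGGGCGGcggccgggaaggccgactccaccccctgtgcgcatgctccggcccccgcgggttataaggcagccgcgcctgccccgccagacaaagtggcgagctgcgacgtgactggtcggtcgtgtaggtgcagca
Slc2a1: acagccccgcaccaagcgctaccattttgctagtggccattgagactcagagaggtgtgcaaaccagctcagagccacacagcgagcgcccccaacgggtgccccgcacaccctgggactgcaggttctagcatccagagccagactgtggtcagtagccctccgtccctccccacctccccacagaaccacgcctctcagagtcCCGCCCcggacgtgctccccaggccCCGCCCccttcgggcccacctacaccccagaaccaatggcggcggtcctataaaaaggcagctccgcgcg

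On both strands, 6 motifs were searched, chosen with the results known. They were the interferon response element (GAAA, any pair of bases, GAAA), the STAT site TTCNNNGAA, the TCF site CTTTGAT of beta-catenin signalling, GTTAAT as part of the HNF1 site, the E-box CACGTG and the GC-box GGGCGG. None of the 8 transporters with a window held the first 3, which 3.99%, 9.55% and 4.29% of all 27025 genes with such windows held. GTTAAT stood in the windows of Slc22a8 and Slc22a6 (8.24% of all genes), starting 81 and 56 bases before the annotated start. The E-box stood in those of Slco1c1 and Slc16a1 (8.09%), and the GC-box in those of Abcg2, Slc2a1 and Slc16a1 (38.2%). The windows of Slc22a8, Slc22a6, Slco1a4, Slco1c1 and Abcb1a held 1 or 2 CpG dinucleotides each, against 18 for Slc2a1 and 42 for Slc16a1. Abcg2 had 3 windows with 3, 10 and 28. A match is a description of the letters, and no binding was measured.

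Slco1a4 and Slco1c1, the organic anion transporting polypeptides of the set, fell as well. Slco1a4 encodes OATP1A4, which moves bile acids, steroid conjugates and many drugs across brain capillaries. Its level was 30.4, 31.8, 25.04 and 19.7 CPM in the treated knockout, 54.1, 60.9, 44.0 and 47.0 CPM in the saline knockout and 48.4, 39.4, 42.4 and 40.6 CPM in FVB. Every treated library was below the other 8. The log2 fold change was −0.95 (SE 0.139, adjusted p = 9.60e-04) against the saline knockout and −0.68 (SE 0.139, adjusted p = 0.00871) against FVB, and both calls held in all 22 alternatives.

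Slco1c1, which lies near Slco1a4 on chromosome 6, encodes OATP1C1, a carrier of thyroxine in brain endothelium and, in rodents, in astrocytes and choroid plexus. It was at 38.2, 50.1, 32.7 and 32.1 CPM in the treated knockout, 59.9, 78.6, 60.9 and 56.1 CPM in the saline knockout and 49.2, 62.5, 54.0 and 59.1 CPM in FVB. The highest treated and the highest saline library, both number 2, are among those high in Ttr, but treated knockout 3, also high in Ttr, was at 32.7 CPM. Treated and saline knockout did not overlap, while treated knockout 2 lay above FVB 1. The log2 fold change against the saline knockout was −0.74 (SE 0.144, adjusted p = 0.0122), and −0.74 (adjusted p = 0.00124) without the libraries high in Ttr. The call ended only where no filter on low counts was used (0.0590). Against FVB Slco1c1 fell by 0.55 on the log2 scale (SE 0.144, adjusted p = 0.0347), a call that ended without treated knockout 1 (0.0719), 3 (0.1085) or 4 (0.0872), saline knockout 3 (0.0530) or FVB 2 (0.1102), 3 (0.0645) or 4 (0.0981), without the filter (0.123) and with the meningeal covariate (0.0691).

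The ABC efflux pumps use ATP to return drugs to the blood, and 1 of the 2 in the set fell. Abcb1a encodes P-glycoprotein, the main drug pump of the mouse blood-brain barrier. Its level was 31.2, 27.3, 22.1 and 25.2 CPM in the treated knockout, 53.4, 41.5, 35.5 and 31.4 CPM in the saline knockout and 40.7, 34.2, 36.3 and 35.2 CPM in FVB. The treated libraries lay below all others, though treated knockout 1 and saline knockout 4 were only a little apart. Abcb1a fell by 0.61 on the log2 scale against the saline knockout (SE 0.143, adjusted p = 0.0336). Against FVB its log2 fold change was −0.47 (SE 0.143, 95% interval −0.77 to −0.16, adjusted p = 0.0666), which did not pass.

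The first of these calls on Abcb1a ended without treated knockout 2 (adjusted p = 0.0791), 3 (0.106) or 4 (0.0965), saline knockout 2 (0.0810) or FVB 3 (0.0531) or 4 (0.0535). It also ended without the libraries high in Ttr (0.498, log2 fold change −0.50), without the filter (0.103) and with only the 2 groups in the fit (0.0976). The difference from FVB passed by DESeq2 (0.0131), with only the 2 groups in the fit (0.00858), with the replicate block (0.00489) and without treated knockout 1 (0.0343) or saline knockout 1 (0.0112) or 4 (0.0295). Abcb1b, the second P-glycoprotein gene and a close copy beside Abcb1a, was at 1.22, 1.25 and 1.27 CPM in treated knockout, saline knockout and FVB, with a log2 fold change of −0.04 (SE 0.266, adjusted p = 0.966) between the knockout groups. Slco1a5, of the same family as Slco1a4, was at 0.391 and 0.477 CPM in treated and saline knockout (log2 −0.28, SE 0.625, adjusted p = 0.886). How reads that match several copies were counted is not stated, so the split between the Abcb1 copies, and among the Slco1a genes, is uncertain.

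Abcg2 encodes BCRP, an efflux pump that shares many substrates with P-glycoprotein. It was at 12.7, 11.6, 12.2 and 15.1 CPM in the treated knockout, 18.1, 17.1, 14.9 and 15.2 CPM in the saline knockout and 17.7, 12.9, 18.0 and 16.2 CPM in FVB. Treated knockout 4 reached above saline knockout 3, so the groups overlapped. Its log2 fold change was −0.34 (SE 0.116, 95% interval −0.58 to −0.10, adjusted p = 0.137) against the saline knockout and −0.33 (SE 0.116, adjusted p = 0.0980) against FVB. Neither passed, although the second did without FVB 2 (0.0339).

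**Figure D2:**
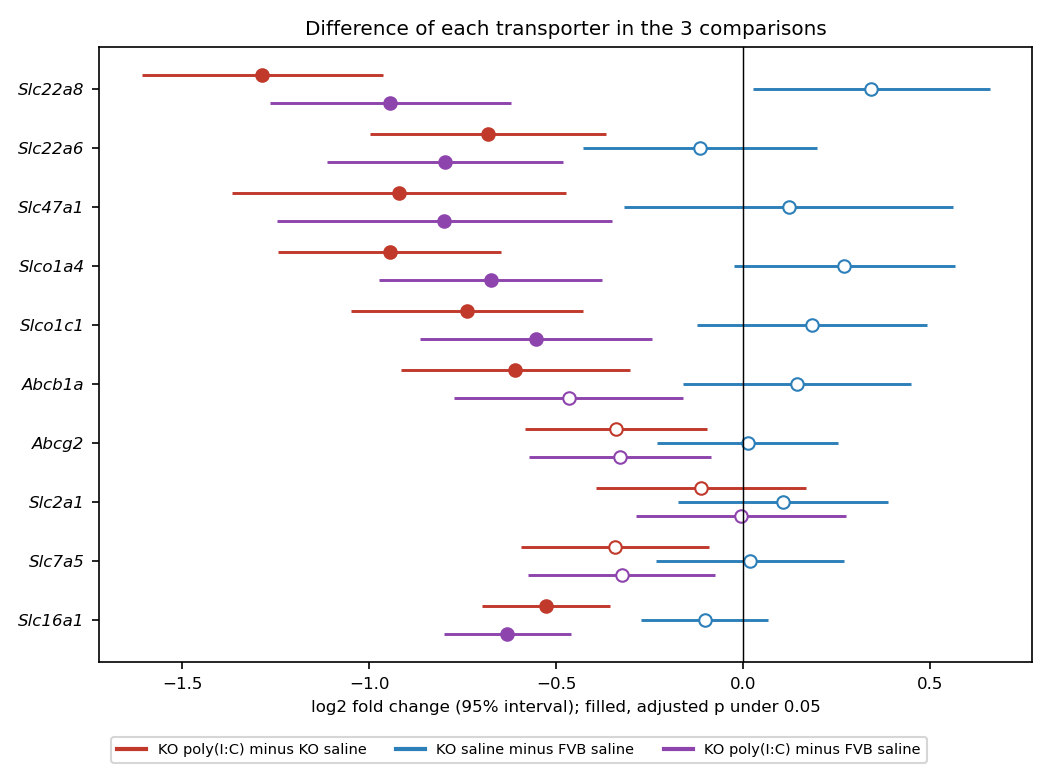
Log2 fold change of each transporter (horizontal axis) with its 95% interval in the 3 comparisons, by colour, where filled points passed an adjusted p under 0.05. All 10 differences between treated and saline knockout are negative, from −1.29 for Slc22a8 to −0.11 for Slc2a1, and none of the differences between saline knockout and FVB is filled.

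Of the 3 nutrient carriers Slc16a1 fell, and Slc7a5 and Slc2a1 did not pass. The difference between carriers was not tested. Their 95% intervals overlapped against the saline knockout. Against FVB that of Slc16a1 (−0.80 to −0.46) did not overlap that of Slc2a1 (−0.29 to 0.28), while that of Slc7a5 (−0.58 to −0.07) overlapped both. Slc16a1 encodes MCT1, a proton-coupled carrier of lactate, pyruvate and ketone bodies in brain endothelium and in oligodendrocytes. Its level was 49.1, 43.4, 44.3 and 40.3 CPM in the treated knockout, 57.2, 66.0, 62.7 and 69.4 CPM in the saline knockout and 61.5, 77.1, 66.3 and 69.4 CPM in FVB. The treated libraries lay together below all 8 others. The log2 fold change was −0.53 (SE 0.0813, adjusted p = 4.90e-04) against the saline knockout and −0.63 (SE 0.0814, adjusted p = 4.60e-05) against FVB. The second held in all 22 alternatives, and the first ended only without the libraries high in Ttr (0.0569, log2 fold change −0.50). Bsg, the chaperone that takes MCT1 to the cell surface, was at 518, 584 and 532 CPM in treated knockout, saline knockout and FVB, with a log2 fold change of −0.17 (SE 0.0735, adjusted p = 0.249) between the knockout groups.

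Slc7a5 encodes LAT1, which exchanges large neutral amino acids, including L-DOPA, as a dimer with the Slc3a2 product. Its level was 73.4, 61.8, 72.5 and 81.2 CPM in the treated knockout, 107.7, 77.6, 99.1 and 82.4 CPM in the saline knockout and 107.5, 90.7, 86.1 and 77.7 CPM in FVB. Treated knockout 4 was above saline knockout 2 and FVB 4, so the groups overlapped. The log2 fold change was −0.34 (SE 0.117, 95% interval −0.60 to −0.09, adjusted p = 0.153) against the saline knockout and −0.33 (SE 0.117, adjusted p = 0.117) against FVB. It passed in neither comparison under any of the 22 alternatives. Slc3a2 was at 137, 133 and 126 CPM in treated knockout, saline knockout and FVB, with a log2 fold change of 0.04 (SE 0.0652, adjusted p = 0.854) between the knockout groups.

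Slc2a1 encodes GLUT1, the glucose carrier of brain endothelium, which astrocytes and red blood cells also make. It was at 103, 87.2, 127 and 141 CPM in the treated knockout, 134, 110.3, 127 and 125 CPM in the saline knockout and 133, 104.5, 115 and 107.5 CPM in FVB. The treated group held both the lowest and the highest of the 12 libraries. Its log2 fold change was −0.11 (SE 0.130, 95% interval −0.39 to 0.17, adjusted p = 0.748) against the saline knockout and −0.0061 (SE 0.130, 95% interval −0.29 to 0.28, adjusted p = 0.984) against FVB, and it passed under no alternative.

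Saline knockout and FVB were compared to see whether the transporters differed without the stimulus. None of the 10 passed by edgeR, where 1.53% of all tested genes did. The count at an unadjusted p below 0.05 was 1, Slc22a8, and it was 0 by DESeq2 and by limma-voom after adjustment. For all 10 the libraries of the groups overlapped, where 7.02% of all tested genes had no overlap. The log2 fold changes ran from −0.12 (Slc22a6) to 0.34 (Slc22a8, SE 0.149, adjusted p = 0.366), with 8 positive, 2 negative and a median of 0.11. The widest 95% interval, that of Slc47a1, ran from −0.32 to 0.56, and the narrowest, that of Slc16a1, from −0.27 to 0.07. Slco1a4 passed with the meningeal covariate (log2 fold change 0.33, adjusted p = 0.0472).

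Against FVB the treated knockout was lower in 6 of the 10 (Slc22a8, Slc22a6, Slc47a1, Slco1a4, Slco1c1 and Slc16a1), where 3.24% of all tested genes fell and 7.05% were called. All 10 log2 fold changes were negative, with a median of −0.59. For 6, the called ones but Slco1c1 and with Abcb1a, every treated library lay below every FVB library, as for 7.46% of all tested genes. This comparison shares the treated libraries with the first, so they are not independent of each other.

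Levels of different genes were compared per kilobase of exon, using GENCODE M21 lengths. In the treated knockout Slc2a1 led with 32.7 ± 6.84 CPM per kilobase, followed by Slc7a5 (19.5 ± 2.15), Slc16a1 (10.0 ± 0.822), Slco1c1 (7.38 ± 1.61), Abcb1a (4.825 ± 0.692) and Slco1a4 (4.165 ± 0.862). Slc22a8 stood at 2.97 ± 0.630, Slc22a6 at 1.83 ± 0.342, Abcg2 at 1.58 ± 0.185 and Slc47a1 at 0.828 ± 0.207 (SD, n = 4). The ranges of mean ± SD overlapped between the neighbours Abcb1a and Slco1a4, Slco1a4 and Slc22a8, and Slc22a6 and Abcg2. In the saline knockout Slc2a1 (35.3 ± 2.78) and Slc7a5 (24.7 ± 3.79) led again, Slc16a1 (14.4 ± 1.17) and Slco1c1 (12.3 ± 1.93) overlapped, and so did Slco1a4 (8.03 ± 1.18), Abcb1a (7.38 ± 1.74) and Slc22a8 (7.26 ± 1.04). Lower stood Slc22a6 (2.94 ± 0.307), Abcg2 (2.00 ± 0.188) and Slc47a1 (1.57 ± 0.300), the last pair overlapping. In FVB Slc2a1 (32.8 ± 3.69), Slc7a5 (24.4 ± 3.38), Slc16a1 (15.5 ± 1.47) and Slco1c1 (10.8 ± 1.13) led, Slc22a6 (3.19 ± 0.644), Abcg2 (1.99 ± 0.283) and Slc47a1 (1.45 ± 0.353) closed the order, and Slc22a8 was at 5.73 ± 0.951 beside Abcb1a at 6.68 ± 0.518 and Slco1a4 at 6.66 ± 0.620. These 3 overlapped in both saline groups, while in the treated knockout Slc22a8 lay below Abcb1a without overlap of mean ± SD.

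Within the treated group no library was low for all transporters. Treated knockout 4 was the lowest of its group for 6 of the 10 transporters (Slc22a8, Slc22a6, Slc47a1, Slco1a4, Slco1c1 and Slc16a1) and the highest for 3 (Abcg2, Slc2a1 and Slc7a5). Treated knockout 2 was the lowest for these 3 and the highest for Slc47a1, Slco1a4 and Slco1c1. Treated knockout 4 also had the lowest summed level of its group for markers of endothelium (456 CPM against 509 to 557 CPM in the other 3). The same held for markers of meninges (1044 CPM, of which 815 CPM was Ptgds, against 1210 to 1352 CPM) and interferon-stimulated genes (800.3 against 920 to 998 CPM). The part of these differences in the result was not tested. Without that library 4 of the 10 were called against the saline knockout. These were Slc22a8, Slco1a4, Slco1c1 and Slc16a1, with log2 fold changes of −1.18, −0.82, −0.66 and −0.48. The calls on Slc22a6 (adjusted p = 0.0607), Slc47a1 (0.0675) and Abcb1a (0.0965) ended.

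**Figure D3:**
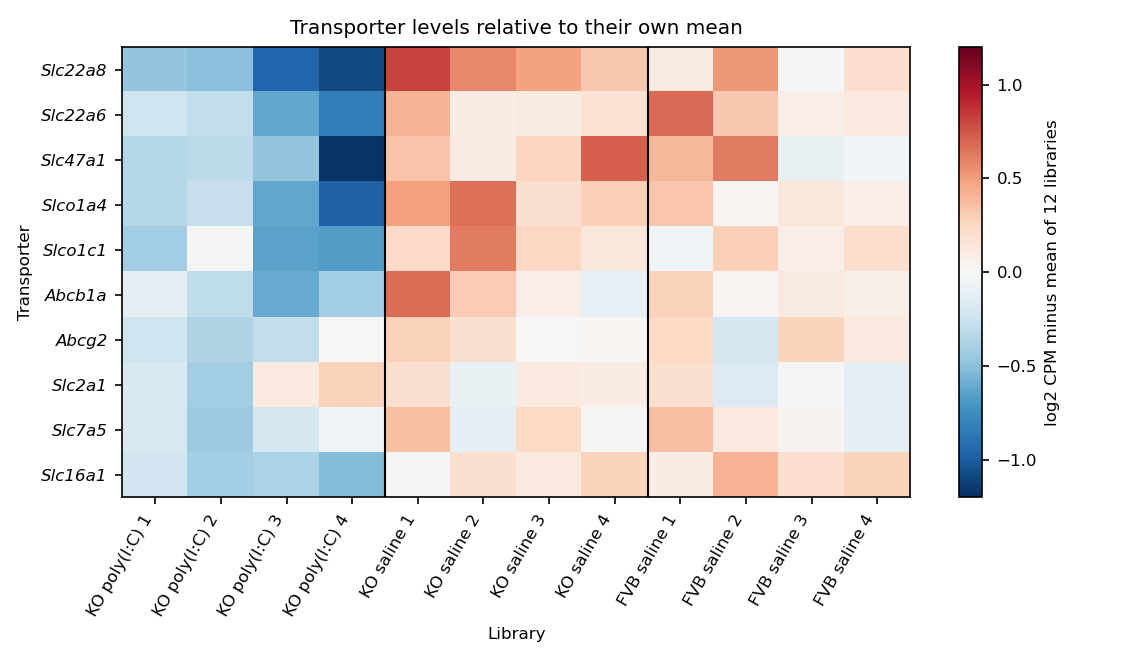
Log2 CPM of each transporter (rows) in each library (columns) minus its mean over the 12 libraries, in blue where lower and red where higher. Treated knockout 4 is at −1.18 for Slc47a1 and −1.08 for Slc22a8 and at 0.27 for Slc2a1, and the treated libraries are all negative for Slc22a8.

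Other transport genes, not all of them particular to the barriers, were set beside the 10. Of 18 tested organic ion and drug transporters outside the set 1 fell in the treated against the saline knockout and 17 did not pass, with a median log2 fold change of −0.03. The fall was Abcc6, a pump of the ABC family, at 0.614 CPM in the treated and 1.57 CPM in the saline knockout (log2 −1.36, SE 0.267, adjusted p = 0.00618). Of 34 tested genes of nutrient and hormone transport 3 fell, 1 rose and 30 did not pass, with a median of −0.14. This list also holds the chaperone gene Bsg and the transferrin receptor gene Tfrc. Of all tested genes 1.06% fell and 2.87% were called. The calls on this list numbered 8 by DESeq2, 5 by limma-voom and 3 with the libraries high in Ttr left out. By edgeR 14 had an unadjusted p below 0.05. In 9 of the 34 every treated library lay below every saline library, as for 4.82% of all tested genes, and in 2 above. The falls were Slc40a1, the iron exporter ferroportin (4.33 against 10.95 CPM, log2 −1.33, SE 0.173), Slc30a10, a manganese exporter (7.47 against 12.8 CPM, −0.77, SE 0.1299), and Slc6a6, the taurine carrier (106 against 142 CPM, −0.42, SE 0.0616). Mfsd2a, which carries lysophosphatidylcholine with docosahexaenoic acid into the brain and limits vesicle transport across endothelium, rose to 26.0, 21.7, 35.9 and 33.7 CPM in the treated knockout, against 19.5, 14.4, 15.4 and 18.1 CPM in the saline knockout (log2 0.80, SE 0.154, adjusted p = 0.00840). Slc15a2, a peptide carrier, was the 1 gene of either list that differed between saline knockout and FVB (20.3 against 63.0 CPM, log2 −1.64, SE 0.166, adjusted p = 1.92e-04).

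Of 13 tight junction genes 1 rose in the treated against the saline knockout, Lsr, a protein of junctions where 3 cells meet (4.07 against 2.17 CPM, log2 0.90, SE 0.204, adjusted p = 0.0185), and 12 did not pass, and Lsr did not pass without the libraries high in Ttr. Cldn5, the main claudin of brain endothelium, was at 25.2 and 26.3 CPM in treated and saline knockout (log2 −0.06, SE 0.230, adjusted p = 0.938), and Ocln, occludin, at 30.5 and 30.1 CPM (0.02, SE 0.0747, adjusted p = 0.954). Endothelial markers moved both ways, with 5 of 20 lower, 3 higher and 12 not passing, and a median of −0.11. Of all tested genes 1.06% fell and 2.87% were called in this comparison. The calls numbered 7 once the libraries high in Ttr were left out. Tek and Tie1, the angiopoietin receptors, fell by 0.97 and 1.01 on the log2 scale, Ptprb, a phosphatase that acts on Tek, by 0.99, Itm2a by 1.04, and Vwf, von Willebrand factor, by 1.10. Podxl, podocalyxin, rose by 0.81, Robo4, a guidance receptor, by 0.65, and Ly6c1 by 1.14. The SEs of these 8 ran from 0.0925 (Ptprb) to 0.208 (Vwf), and the highest adjusted p was 0.0134, that of Vwf. Pecam1 was at 26.1 and 28.8 CPM (−0.14, SE 0.106, adjusted p = 0.581) and Cdh5, VE-cadherin, at 23.7 and 19.0 CPM (0.32, SE 0.105, adjusted p = 0.124). The summed level of the 20 endothelial markers was 456 to 557 CPM in the treated knockout, 514.5 to 632.5 CPM in the saline knockout and 460 to 576 CPM in FVB, so the groups overlapped. This sum mixes the 5 falls with the 3 rises. Among the rises Ly6c1 averaged 98.3 CPM in the treated and 44.5 CPM in the saline knockout, and Podxl 55.0 and 31.3 CPM. The overlap of the sums therefore does not show that endothelial RNA was unchanged.

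**Figure D4:**
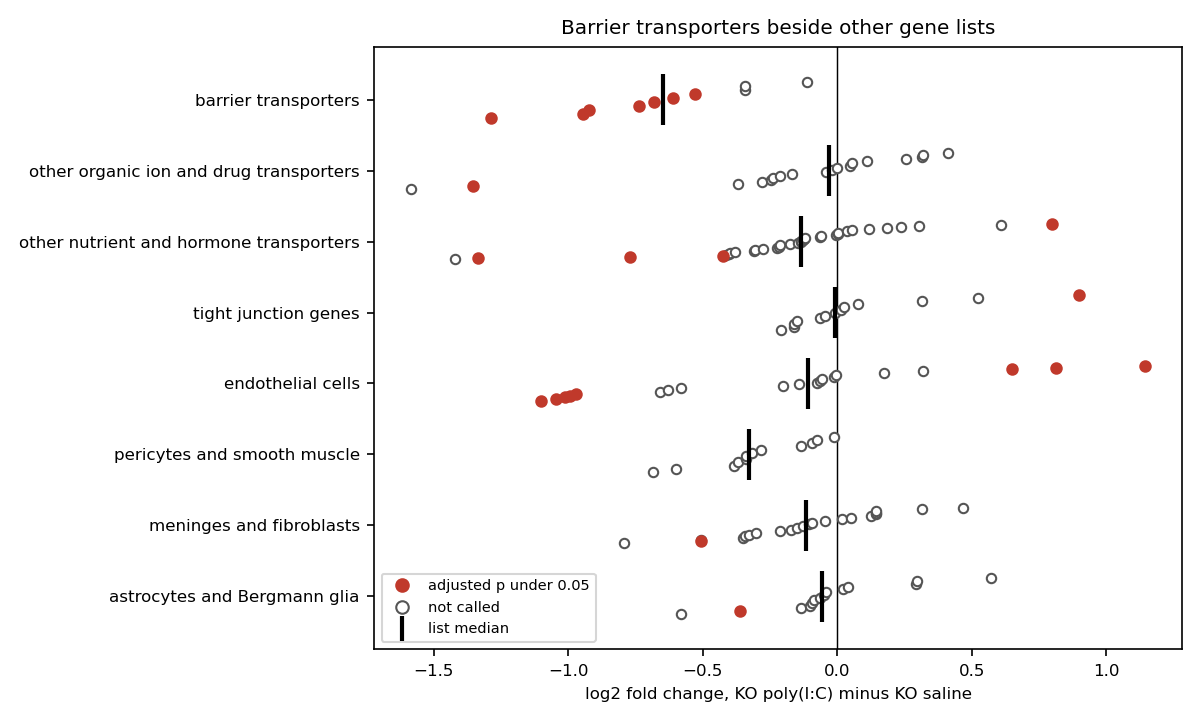
Log2 fold change between treated and saline knockout (horizontal axis) of each tested gene of 8 lists (rows), filled where the adjusted p was under 0.05, with the list median as a black bar. The barrier transporters have a median of −0.65 and no member to the right of 0, while the endothelial list holds 5 falls and 3 rises around a median of −0.11.

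Markers of neighbouring cell types were set beside the transporters. Pericyte and smooth muscle markers summed to 277 to 293 CPM in the treated knockout, below the saline knockout at 314 to 370 CPM and inside the FVB range of 270 to 323 CPM. All 12 had negative log2 fold changes between the knockout groups, with a median of −0.33, but edgeR called none of them (0), DESeq2 called 3 and limma-voom 0, and 6 had an unadjusted p below 0.05. Of all 19166 tested genes edgeR called 2.87% between the knockout groups (1.06% lower), DESeq2 978 genes and limma-voom 572. The share of all genes at that unadjusted p is not given here. For meninges and fibroblasts 21 markers, without the carrier Slc6a13, summed to 1044 to 1352 CPM in treated knockout libraries, 1240 to 1821 CPM in saline knockout libraries and 1129 to 2113 CPM in FVB libraries. Most of this sum was 1 gene, Ptgds, which averaged 904, 1151 and 1248 CPM in these groups, where the sums averaged 1208, 1474 and 1572 CPM. Of the 22 tested members of the list, Slc6a13 included, 1 fell, Islr (12.8 against 18.3 CPM, log2 −0.51, SE 0.132, adjusted p = 0.0441), and none was called without the libraries high in Ttr. Dcn, decorin, was at 29.6 and 31.9 CPM (−0.10, SE 0.108, adjusted p = 0.710). With the mean of this list as a covariate 7 of 10 transporters fell, and Slc22a8 fell by 1.22 on the log2 scale. Choroid plexus markers summed to 155 to 4131, 206 to 6344 and 213 to 289 CPM in treated knockout, saline knockout and FVB. Between treated and saline knockout edgeR, DESeq2 and limma-voom each called 0 of that list's 14 tested members and 0 of the 6 tested red cell markers, and 0 of either had an unadjusted p below 0.05. The 6 red cell log2 fold changes were all negative, with a median of −1.13. Between treated knockout and FVB edgeR and limma-voom called 0 choroid plexus markers and DESeq2 4, and 2 had an unadjusted p below 0.05. With log2 Ttr as a covariate 7 transporters fell. Astrocyte markers summed to 7292 to 7984, 7753 to 8571 and 7647 to 8379 CPM, oligodendrocyte markers to 6040 to 8096, 6496 to 7149 and 6001 to 6992 CPM, and red cell markers to 68.8 to 119, 91.2 to 265 and 41.6 to 620 CPM. Of 14 tested astrocyte markers 1 fell, Aqp4, the water channel of astrocyte endfeet (363 against 466 CPM, log2 −0.36, SE 0.0903, adjusted p = 0.0368). Of 12 oligodendrocyte markers 1 fell, Opalin (5.80 against 14.1 CPM, −1.27, SE 0.175, adjusted p = 2.02e-04). All 24 interferon-stimulated genes rose in the treated knockout, where 2.87% of all tested genes were called in either direction. Their summed level was 800.3 to 998 CPM, against 152 to 196 CPM in saline knockout libraries, and 22 were called without the libraries high in Ttr. The part of cell content in the falls was not tested beyond these values.

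For each transporter that fell, the 3 annotated genes with the most similar profile were found by the root mean square difference of centred log2 CPM over the 12 libraries, among named genes whose log2 CPM averaged 1 or more. Closest to Slc22a8 were Slc40a1 (0.173), Itm2a (0.178) and Ptprb (0.200), where the SD of Slc22a8 itself was 0.591. Slco1a4 had Slc30a10 (0.184), Atp13a5 (0.190) and Slco1c1 (0.202) closest, beside an SD of 0.451. Slco1c1 had Wnt4, Entpd1 and Slc26a1 (0.147 to 0.157, SD 0.376), and Abcb1a had Tfpi, Hacd4 and Ebf2 (0.1254 to 0.1445, SD 0.327). The meningeal carrier Slc22a6 had Olfml2a, Aebp1 and Stab1 (0.157 to 0.178, SD 0.410), and Slc47a1 had Slc22a6, Fkbp10 and Ano1 (0.240 to 0.255, SD 0.508). Slc16a1 had Fabp5, a fatty acid-binding protein, at 0.0887, followed by Pltp (0.118) and Eps8 (0.122), beside an SD of 0.296. Of these genes Atp13a5 is a P5-type ATPase, Tfpi an inhibitor of the tissue factor pathway and Entpd1 an enzyme that degrades extracellular ATP.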

How the data were processed

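Sequencing, mapping and counting were done by the submitters. The authors deposited raw read counts for 57010 Ensembl genes in 12 samples, and the submitters' processing notes list Trim Galore, HISAT2 and featureCounts with GRCm39. The sources used here state no versions, strand setting or annotation release. Per the labels' protocols, RNA was extracted with TRIzol, treated with DNase I and made into libraries with a TruSeq kit. Groups and replicate numbers came from the titles.

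GENCODE M21 gave symbols, matched on the Ensembl identifier, to 52029 genes holding 99.4% of the counts. Of 241 distinct list symbols 239 were found. The 10 transporters, the gene lists and the motifs were chosen with earlier results of these data known, so their counts are not independent support. Named genes are the transporters, up to 4 called members per other list by smallest p (more are named for endothelium and were chosen after their values were seen, as were Cldn5, Ocln, Pecam1, Cdh5 and Dcn), partners and copies of transporters, and the 3 closest profiles. Not every called gene of the other lists is reported here.

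Genes were kept by filterByExpr of edgeR 4.0.16 (minimum count 10, minimum total 15), which left 19166. TMM scaling and a robust quasi-likelihood fit with a mean for each of the 3 groups left 9 residual degrees of freedom, a design stated in none of the labels. Intervals are 95% intervals of the estimated log2 fold change, and their width rests on the spread between libraries. Standard errors (SE) were derived from the log2 fold change and the F statistic. Group values are means ± SD of 4 libraries. The script was tested on simulated counts. Alternatives were DESeq2 1.42.0, limma-voom (limma 3.58.1), RLE and upper quartile scaling, no low-count filter, only the 2 groups compared, a replicate block, dropping libraries whose Ttr exceeded 1000 CPM, log2 Ttr or the mean of 21 meningeal markers as a covariate, and leaving out each of the 12 libraries.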

Additional observations from a re-analysis of the deposited data

How the results depend on the processing

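Each of 30 log2 fold changes (10 transporters in 3 comparisons) was recomputed under 22 alternatives, and no called value changed sign. The number of transporters called in treated against saline knockout was 7, and 3 without the libraries with Ttr above 1000 CPM, a setting that leaves 9 libraries. Leaving out each library gave 4 to 7. In treated knockout against FVB it was 6, and 4 to 7 on leaving out each library. In saline knockout against FVB it was 0, also on leaving out each library, and 1 with the meninges list mean as a covariate. Over all alternatives 35 calls of single transporters were lost and 8 gained, and the causes were not tested. Deviations of same-numbered libraries from their group means correlated at −0.0987 to 0.145, over 0.1 in 2 of 12 pairs. Such values over all genes cannot decide whether the replicate numbers pair the libraries. With the replicate block 7, 0 and 7 transporters were called in treated against saline knockout, saline knockout against FVB and treated knockout against FVB. Over all genes the first comparison had 550 calls, 978 by DESeq2, 215 without the libraries high in Ttr and 347 to 689 on leaving out each library. The second had 294, against 629 by DESeq2, 506 without the filter and 156 to 300 on leaving out each library. The third had 1352, against 556 without the libraries high in Ttr and 791 to 1542. Slc47a1, with 82 to 343 reads a library, had the widest intervals.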

Other observations

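The protein-coding genes next to the 10 transporters in RefSeq, up to 2 on each side, numbered 32 outside the set, of which 20 passed the filter. In treated against saline knockout edgeR, DESeq2 and limma-voom each called 0, and 3 had an unadjusted p below 0.05, where edgeR called 2.87% of all tested genes. Near Slc22a8, Slc22a29 averaged 0.0760 and 0.142 CPM in treated and saline knockout and was at 0 in FVB. Slc47a2, beside Slc47a1, averaged 0.0266, 0.113 and 0.139 CPM in treated knockout, saline knockout and FVB. Neither gene passed the filter or was tested. Summed reads in these groups, in the same order, were 15, 24 and 0 for Slc22a29 and 6, 19 and 23 for Slc47a2. Aldh3a2, a fatty aldehyde dehydrogenase near Slc47a1, was higher in the saline knockout than in FVB (85.4 against 70.6 CPM, log2 0.27, SE 0.0678, adjusted p = 0.0477).

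Of 23 tested genes of the beta-catenin pathway that maintains brain endothelium 22 did not pass between treated and saline knockout, where 2.87% of all tested genes were called and 1.06% fell. The median log2 fold change of the 23 was −0.12. The 1 that fell was Apcdd1, an inhibitor of the pathway (34.5 against 45.7 CPM, log2 −0.40, SE 0.0956, adjusted p = 0.0246), a call that ended without the libraries high in Ttr. Against FVB 4 of the 23 were called, 3 lower and 1 higher, where 7.05% of all tested genes were called. Without the libraries high in Ttr the count was 0. Wnt7a and Wnt7b, the ligands, were at 50.6 and 7.63 CPM in the treated knockout against 66.2 and 10.3 CPM in FVB (log2 −0.39 and −0.43, adjusted p = 0.0159 and 0.0329). In the saline knockout Wnt7a was at 51.2 CPM, near its treated level, and Wnt7b at 8.96 CPM. Ctnnb1, beta-catenin itself, fell by 0.21 on the log2 scale against FVB. Of 14 tested nuclear receptors and other regulators of transporter genes edgeR called 0 between the knockout groups, limma-voom 0 and DESeq2 1, with 3 at an unadjusted p below 0.05. Of all 19166 tested genes edgeR called 2.87% there, limma-voom 572 genes and DESeq2 978. The drug-sensing receptors Nr1i2 and Nr1i3 were not tested because their counts were too low.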
